A study of Mus musculus with 14 samples.

Results

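Ribosomal protein pseudogenes were taken as the gene symbols that begin with Rpl or Rps and end in -ps, with or without a number, and that were present in both normalized count tables of the study. The rule found 308 of 51211 symbols, of which 195 were named after proteins of the large ribosomal subunit and 113 after proteins of the small subunit. They carried the names of 64 parent genes, with 24 copies of Rpl31, 18 of Rps12 and 15 of Rpl21. The study collected whole olfactory epithelia at postnatal day 5. In the Kir2.1 experiment, 3 mice with the OMP-IRES-tTA driver together with the tetO-Kir2.1-IRES-tauLacZ responder were compared with 3 mice heterozygous for OMP-IRES-tTA, so both groups carried the driver. With the responder, the promoter of the olfactory marker protein drives the inward-rectifier potassium channel Kir2.1, which silences mature olfactory sensory neurons. The label of this group is Kir2.1-Off, shortened here to Kir2.1. In the PEA experiment, 4 wild type mice kept with 2-phenylethylamine (PEA), an aversive odorant, from postnatal day 0 to 5 were compared with 4 unexposed wild type mice. The labels give the strain background of every mouse as C57BL/6, whereas the study's methods describe the PEA pups as CD-1.

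Ribosomal proteins are the protein part of the ribosome, and their mRNAs are among the most abundant of any cell. Processed pseudogenes arise when a spliced mRNA is copied back into DNA by the reverse transcriptase of a retrotransposon and is inserted elsewhere in the genome, so they hold the parent's exons without its introns and usually without its promoter. Ribosomal protein mRNAs have left many such copies in mammalian genomes. A young copy differs from its parent at few bases, and a short read from either then matches both.

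Of the 308 symbols, 289 were found by name and 9 through a RefSeq synonym in the GENCODE annotation of GRCm38, and 10 had no match. The annotation called 281 of them processed pseudogenes, 8 transcribed processed pseudogenes, 8 protein coding genes and 1 a lincRNA. They lay on 20 chromosomes, and 95 overlapped another annotated gene. The 291 copies that could be aligned with the parent's transcript had a median identity of 95.7%, with a range from 70.9 to 100%. A median of 49.5% of the 40-base stretches of a copy, the read length of the Kir2.1 experiment, also occurred on the same strand in transcripts of another gene. For 150-base stretches, the read length of the PEA experiment, this median was 0%.

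Stretches of 150 coding bases are printed for the copies on which the comparisons turned, to show how few bases separate some of them from the parent. Positions are counted from the first base of the parent's start codon, coordinates are those of GRCm38, and capitals mark the bases of a copy that differ from the parent. Rps26 (chr10:128624534-128626747, minus strand) encodes a protein of the small subunit. Rps26-ps1 lies at chr8:107439131-107439579 on the minus strand, opposite to an intron of Wwp2, and differed from Rps26 at 2 of 345 coding bases. The stretch of bases 1 to 150 is at chr8:107439413-107439562 and holds 1 of the 2 differences, C30T.
Rps26: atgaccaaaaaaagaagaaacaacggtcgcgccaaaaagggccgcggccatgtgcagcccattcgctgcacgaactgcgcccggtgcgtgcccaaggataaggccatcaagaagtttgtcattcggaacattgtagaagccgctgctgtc
Rps26-ps1: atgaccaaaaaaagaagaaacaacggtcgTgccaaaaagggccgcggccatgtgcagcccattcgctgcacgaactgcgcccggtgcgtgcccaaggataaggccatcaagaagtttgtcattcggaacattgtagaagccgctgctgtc

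Rpl15 (chr14:18267823-18271391, minus strand) encodes a protein of the large subunit. Rpl15-ps2 lies at chr9:72060937-72061549 on the plus strand, opposite to an intron of Tcf12, and differed from Rpl15 at 8 of 610 aligned coding bases. Rpl15-ps6 (chr15:52477617-52478228, minus strand) differed at 2 of 612 and Rpl15-ps3 (chr9:22185607-22186221, minus strand) at 0 of 612. Bases 7 to 156 are printed, which for the copies are chr9:72060941-72061090, chr15:52478073-52478222 and chr9:22186066-22186215. Rpl15-ps2 and Rpl15-ps6 shared the difference A156G, and Rpl15-ps2 also carried G15A, T81C and C104T.
Rpl15: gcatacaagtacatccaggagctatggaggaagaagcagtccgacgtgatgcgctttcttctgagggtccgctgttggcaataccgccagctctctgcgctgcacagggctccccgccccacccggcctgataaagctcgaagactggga
Rpl15-ps2: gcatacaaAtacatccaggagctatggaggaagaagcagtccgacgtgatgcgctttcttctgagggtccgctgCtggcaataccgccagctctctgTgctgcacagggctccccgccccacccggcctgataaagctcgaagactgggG
Rpl15-ps6: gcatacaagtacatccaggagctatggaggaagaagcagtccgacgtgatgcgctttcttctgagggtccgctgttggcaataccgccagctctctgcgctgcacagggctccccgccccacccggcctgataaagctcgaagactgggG
Rpl15-ps3: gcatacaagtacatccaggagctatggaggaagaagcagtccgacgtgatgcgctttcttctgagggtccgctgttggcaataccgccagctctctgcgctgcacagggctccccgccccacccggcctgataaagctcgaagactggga

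Rps7 (chr12:28630854-28635953, minus strand) and Rps18 (chr17:33951999-33956001, minus strand) encode small-subunit proteins, and copies of both differed widely between mice of 1 group in the Kir2.1 experiment. Rps7-ps3 (chrX:152909505-152910155, minus strand) differed from Rps7 at 3 of 582 coding bases, all of them in bases 1 to 150 (chrX:152909971-152910120). Rps18-ps6 (chr13:97760072-97760632, minus strand) and Rps18-ps5 (chr13:28257528-28258134, plus strand) differed from Rps18 at 4 and 3 of 456 coding bases. Both copies carried A337C in bases 282 to 431, at chr13:97760158-97760307 and chr13:28257917-28258066.
Rps7: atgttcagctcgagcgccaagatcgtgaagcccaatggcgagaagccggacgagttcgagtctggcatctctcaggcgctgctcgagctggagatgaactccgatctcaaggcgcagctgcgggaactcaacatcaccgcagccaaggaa
Rps7-ps3: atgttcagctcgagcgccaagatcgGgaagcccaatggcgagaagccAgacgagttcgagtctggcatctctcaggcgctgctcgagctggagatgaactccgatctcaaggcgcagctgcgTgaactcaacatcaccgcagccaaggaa
Rps18: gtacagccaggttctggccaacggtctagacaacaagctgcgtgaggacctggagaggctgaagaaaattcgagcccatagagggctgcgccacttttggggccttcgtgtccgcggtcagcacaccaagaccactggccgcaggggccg
Rps18-ps6: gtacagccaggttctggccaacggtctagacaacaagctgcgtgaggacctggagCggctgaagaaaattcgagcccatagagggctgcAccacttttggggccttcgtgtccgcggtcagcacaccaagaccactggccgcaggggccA
Rps18-ps5: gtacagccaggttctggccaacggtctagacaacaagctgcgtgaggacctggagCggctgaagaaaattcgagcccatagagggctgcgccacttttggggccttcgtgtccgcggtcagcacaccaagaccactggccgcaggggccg

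A more diverged copy is shown for contrast. Rps15a-ps8 (chr4:53791070-53791456, minus strand) differed from Rps15a (chr7:118104372-118116188, minus strand), a small-subunit gene, at 30 of 387 aligned coding bases, and 16 of them are in bases 1 to 150 (chr4:53791307-53791456). Of its 40-base stretches, 19.0% occurred in transcripts of another gene, against 83.8% for Rps7-ps3 and 84.3% for Rps26-ps1. These shares are for the read length of the Kir2.1 experiment and do not apply to the 150-base reads of the PEA experiment.
Rps15a: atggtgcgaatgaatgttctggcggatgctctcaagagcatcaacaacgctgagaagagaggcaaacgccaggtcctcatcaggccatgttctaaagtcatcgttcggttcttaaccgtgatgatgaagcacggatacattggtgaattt
Rps15a-ps8: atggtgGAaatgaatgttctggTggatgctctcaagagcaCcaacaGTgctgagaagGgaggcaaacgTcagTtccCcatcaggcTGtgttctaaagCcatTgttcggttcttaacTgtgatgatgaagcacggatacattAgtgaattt

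Column sums of the tables, which carry the authors' scaling, ranged from 33049111 to 34198478 normalized counts over the 6 mice of the Kir2.1 experiment and from 11476120 to 12467331 over the 8 mice of the PEA experiment. The defining genes of olfactory sensory neurons, including Omp, Cnga2 and Adcy3, were all detected. Summed over 6 such genes, the control mice had 107972 to 120457 normalized counts and the Kir2.1 mice had 78619 to 89791, and fewer neurons and less RNA per neuron cannot be told apart in whole tissue. The hemoglobin genes Hbb-bs and Hba-a1, markers of blood, summed to 5762 to 10339 in controls and to 11035 to 16847 in Kir2.1 mice. Trpc2, a marker of vomeronasal neurons, was 283 to 528 in controls and 145 to 225 in Kir2.1 mice. The 3 vomeronasal markers together overlapped, with sums of 18262 to 22862 and 16041 to 23197. In the PEA experiment the neuronal markers summed to 26411 to 29451 in controls and 24539 to 30711 in PEA mice, but single markers did not overlap: Omp was 6087 to 7326 against 7510.1 to 10082, and Cnga2 was 4853 to 4936 against 4084 to 4658. The markers of sustentacular cells, the supporting cells of the epithelium, summed to 26656 to 32693 in controls and 32626 to 36240.0 in PEA mice, and Cbr2 among them was 6237 to 8709 against 10286 to 11453. The part of these marker differences in the results of either experiment was not tested.

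Most copies were low. In the Kir2.1 experiment 32 of the 308 pseudogenes were listed at 0 in all 6 mice, 85 had a mean of at least 10 normalized counts and 14 had a mean of at least 1000. The PEA table had 120 pseudogenes listed at 0 in all 8 mice, 56 with a mean of at least 10 and 8 with a mean of at least 1000. Of all genes, 38.7% reached a mean of 10 in the Kir2.1 table and 33.8% in the PEA table, against 27.6% and 18.2% of the pseudogenes. The 5 highest pseudogenes held 57.9% of the pseudogenes' summed level in the Kir2.1 experiment and 63.2% in the PEA experiment. Per mouse, the pseudogenes made up 4.26 to 4.62% of the summed level of the 89 ribosomal protein genes and the pseudogenes together in the Kir2.1 experiment. The share in the PEA experiment was 6.83 to 8.12% in controls and 8.05 to 9.51% in PEA mice.

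The level of a copy went with its likeness to other transcripts. Among the 23 aligned copies with a mean of at least 100 in the Kir2.1 table, the median identity with the parent was 99.5% and the median share of 40-base stretches found elsewhere was 86.1%. Among the 212 aligned copies with a mean below 10 there, these medians were 93.7% and 35.2%. In the PEA table the 20 copies with a mean of at least 100 had a median identity of 99.5%, and 58.6% of their 150-base stretches occurred elsewhere, against 94.7% and 0% for the 236 copies below 10. The part of shared sequence in the high values was not tested. The exception with the highest level was Rps18-ps4, whose locus is a lincRNA (Gm26619, chr13:97751112-97760965, plus strand) that overlaps Rps18-ps6 on the opposite strand and shared 2.51% of its 40-base stretches with other genes on its own strand. Its values were 5347, 7596 and 4508 normalized counts in the control mice and 3763, 7165 and 3490.1 in the Kir2.1 mice. It did not exceed 42.3 in the PEA experiment, whose libraries kept the strand. Where both loci overlap, unstranded reads such as those of the Kir2.1 libraries cannot be told apart. The only quantification command the study gives used a reverse-stranded setting.

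**Figure D1:**
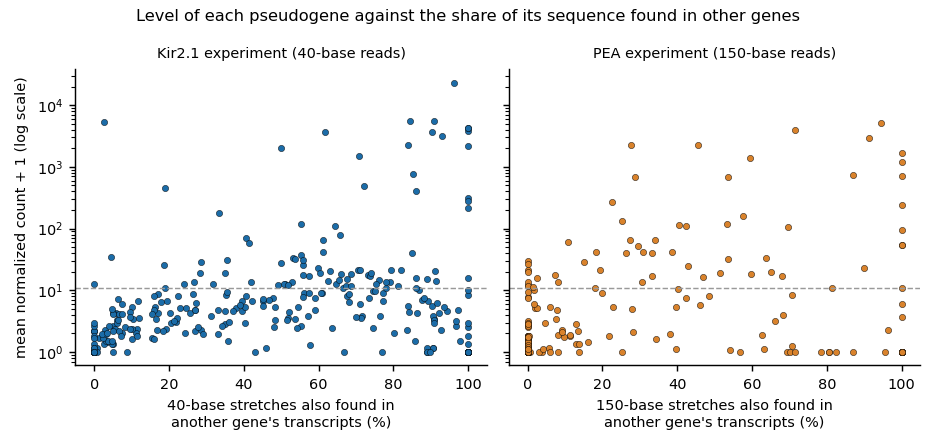
Mean normalized count plus 1 of each pseudogene with a sequence (log scale) against the percentage of its 40-base (Kir2.1 experiment, left, 6 mice) or 150-base stretches (PEA experiment, right, 8 mice) that also occur in transcripts of another gene. The dashed line is a mean of 10; most points above 100 lie at high shares on the left, while many low copies lie near 0% on the right.

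Both experiments used control epithelium of the same age, yet different copies were high in their tables. The tables came from different library types and were normalized separately, so levels are set side by side only through ranks, values at 0 and fixed cutoffs. The column sums given above were larger in the Kir2.1 table, so the numbers of pseudogenes reaching a cutoff in each table partly depend on this scale. A mean of at least 10 was reached in both tables by 25 pseudogenes, in the Kir2.1 table alone by 60, in the PEA table alone by 31 and in neither by 192. The highest pseudogene of the Kir2.1 experiment was Rpl10-ps3 (chr9:50344201-50344968, minus strand), annotated as protein coding and identical to Rpl10 over the aligned bases. It had 24033, 20332 and 21182 normalized counts in the control mice and 24395, 23996 and 24376 in the Kir2.1 mice, and it was listed at 0 in all 8 mice of the PEA experiment. Per kilobase of transcript its mean level was 30016 ± 2351 (SD, n = 6) against 12233 ± 2005 for Rpl10, which encodes a large-subunit protein.

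With near 0 defined as at most 3 normalized counts and expressed as at least 10, 21 pseudogenes (6.82%) were expressed in every mouse of the Kir2.1 experiment and near 0 in every mouse of the PEA experiment, against 0.890% of all symbols. Beside Rpl10-ps3, the highest were Rps23-ps1 with 3145 to 5347 normalized counts, Rps13-ps1 with 2347 to 4476, Rps16-ps2 with 1488 to 3079, Rps15a-ps8 with 354 to 561 and Rpl38-ps2 with a mean of 308, each listed at 0 in all 8 mice of the PEA experiment. The reverse pattern was found for 4 pseudogenes (1.3%, against 0.211% of all symbols). Rpl34-ps1 had 862 to 1883 normalized counts in the PEA experiment, Rpl27-ps3 had 465 to 1625, Rpl17-ps5 had 618 to 830.4 and Rps23-ps2 had 21.5 to 54.2, and all 4 were listed at 0 in the 6 mice of the Kir2.1 experiment. Rpl3-ps1, the highest pseudogene of the PEA experiment with 4080.3 to 6402 normalized counts, did not exceed 6.01 in the Kir2.1 experiment. Selection of polyadenylated RNA or depletion of ribosomal RNA, read length and strand all differ between the tables by the labels or methods. Library kit and sequencer also differ by the methods. Genotype differs as well, since all mice of the Kir2.1 experiment carried the OMP-IRES-tTA driver and those of the PEA experiment were wild type. Strain may differ too, since the labels and methods disagree on it. These cannot be told apart.

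**Figure D2:**
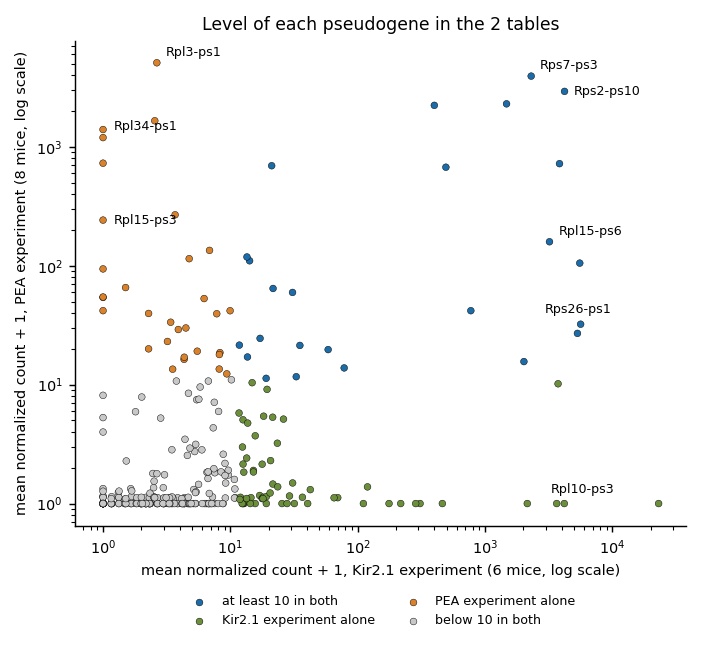
Mean normalized count plus 1 of each of the 308 pseudogenes in the Kir2.1 experiment (x axis, 6 mice) and in the PEA experiment (y axis, 8 mice), both on log scales, colored by the table in which the mean reached 10. The 60 green points and the 31 orange points reached it in 1 table alone, and the points on the lower and left edges were listed at 0 in the other table.

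Several copies were listed above their parents in the PEA experiment. For near-identical sequences such levels are estimates that divide shared reads, so they do not show that a copy was transcribed above its parent. Compared per kilobase, with the shortest transcript that holds the coding sequence as the parent's length, 9 of the 56 pseudogenes with a mean of at least 10 had a higher mean level than the parent, and in the Kir2.1 experiment 1 of 82 did, Rpl10-ps3. Rps18-ps6 reached 4103 ± 755 per kilobase (SD, n = 8) against 343 ± 47.0 for Rps18, and it was above the parent in 8 of 8 mice. Rpl34-ps1 reached 3951 ± 1018 against 351 ± 62.5 for Rpl34, a large-subunit gene, also in 8 of 8 mice. The level of Rps7-ps3 was 6766 ± 1414 against 2128 ± 451 for Rps7. Rps2-ps10, a copy of the small-subunit gene Rps2, reached 3334 ± 836 against 1230.2 ± 199. The others were Rps18-ps5, Rpl27-ps3, Rpl3-ps1, Rpl28-ps1 and Rpl35a-ps2, and the last was above its parent in 4 of 8 mice. Among the 82 copies compared in the Kir2.1 experiment the median stood at 0.156% of the parent's level per kilobase. Among the 56 compared in the PEA experiment, a different set, it stood at 2.48%.

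Exposure to PEA went with large differences in copies of Rps26 and Rpl15. The comparison used limma on log2(normalized count + 1) over the 17322 genes with a mean of at least 10, with Benjamini-Hochberg adjustment over all of them and a threshold of 0.05, and fold changes are on that scale. Of the 56 pseudogenes that passed this filter, 3 changed and all 3 were higher in the PEA mice (5.36%), against 0.179% of all genes called in either direction and 0.144% called higher. All 3 had a mean below 10 in the control mice (0.446, 4.68 and 8.22 normalized counts) and passed the filter only through the PEA mice, so their share is a description and no evidence about the pseudogenes as a group. Without the filter 1 of them, Rps26-ps1, was called.

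Rps26-ps1 had 0.896, 0.887, 0 and 0 normalized counts in the control mice and 45.7, 60.1, 58.1 and 84.4 in the PEA mice. Every PEA mouse was above every control mouse, and the log2 fold change was 5.48 (SE 0.41, adjusted p = 3.0e-04, and 0.0112 without the filter on low values). It was the only pseudogene near 0 in all mice of one group and expressed in all mice of the other, 1 of 308 (0.325%), against 7 of 51211 symbols (0.0137%), the others being Ang4, Gm6563, Gm6644, Olfr888, Olfr890 and, in the opposite direction, Padi4. That pattern and the test rest on the same values and are not independent of each other. Since the control values were at or below 1, the fitted fold change depends on the constant added before the logarithm, and it ranged from 3.60 with 5 to 6.19 with 0.5. In the Kir2.1 experiment Rps26-ps1 was among the highest pseudogenes, with 4889 to 5984 normalized counts in the control mice and 5747 to 6071 in the Kir2.1 mice. The parent Rps26 had 699, 917, 584 and 982 normalized counts in the control mice of the PEA experiment and 929, 1373, 1196 and 1626 in the PEA mice, with overlapping groups (log2 fold change 0.69, SE 0.20, adjusted p = 0.171). In the PEA mice the copy held few of the reads given to the family, with 62.1 ± 16.2 against 1281 ± 294 for the parent (SD, n = 4).

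Rpl15-ps2 had 4.67, 9.98, 0.990 and 3.10 normalized counts in the control mice and 178, 213, 173 and 487 in the PEA mice (log2 fold change 5.65, SE 0.51, adjusted p = 0.00104, and 0.0695 without the filter). Rpl15-ps6 had 1.87, 18.04, 5.93 and 7.03 in the control mice and 242, 266, 217 and 508 in the PEA mice (log2 fold change 5.29, SE 0.50, adjusted p = 0.00141, and 0.0900 without the filter). Neither copy was called without the filter, although their groups did not overlap, and the fourth PEA mouse was the highest. The copy identical to the parent moved the other way. Rpl15-ps3 had 564, 301, 542 and 366 normalized counts in the control mice and 158, 0, 0 and 0 in the PEA mice, again without overlap, but it did not pass the test (log2 fold change -6.92, SE 1.42, adjusted p = 0.0901). Leaving out the first PEA mouse, the only one above 0, left a PEA group at 0 throughout. The limma fit then gave a log2 fold change of -8.75 (adjusted p = 1.2e-06). Removing that mouse also removed all spread in the PEA group, so this p-value is no support for a change. Rpl15-ps3 was called in 0 of the 9 other settings.

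The 3 Rpl15 copies taken with the rest of the family changed less than each of them. The Rpl15 pseudogenes summed to 361 to 605 normalized counts in the control mice and to 423 to 1027 in the PEA mice, and the groups overlapped. Rpl15 itself had 3026 to 3821 in the control mice and 4011 to 5307 in the PEA mice, without overlap, and it did not pass the test (log2 fold change 0.39, SE 0.12, adjusted p = 0.171). For the parent and all annotated genes with at least 90% identity over at least 80% of its coding sequence, the sum was 3938 ± 260.0 in controls and 5182 ± 795 in PEA mice (SD, n = 4). In the Kir2.1 experiment Rpl15-ps6 had 2869 to 3634 normalized counts over all 6 mice, Rpl15-ps2 did not exceed 18.9 and Rpl15-ps3 was listed at 0 in every mouse.

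**Figure D3:**
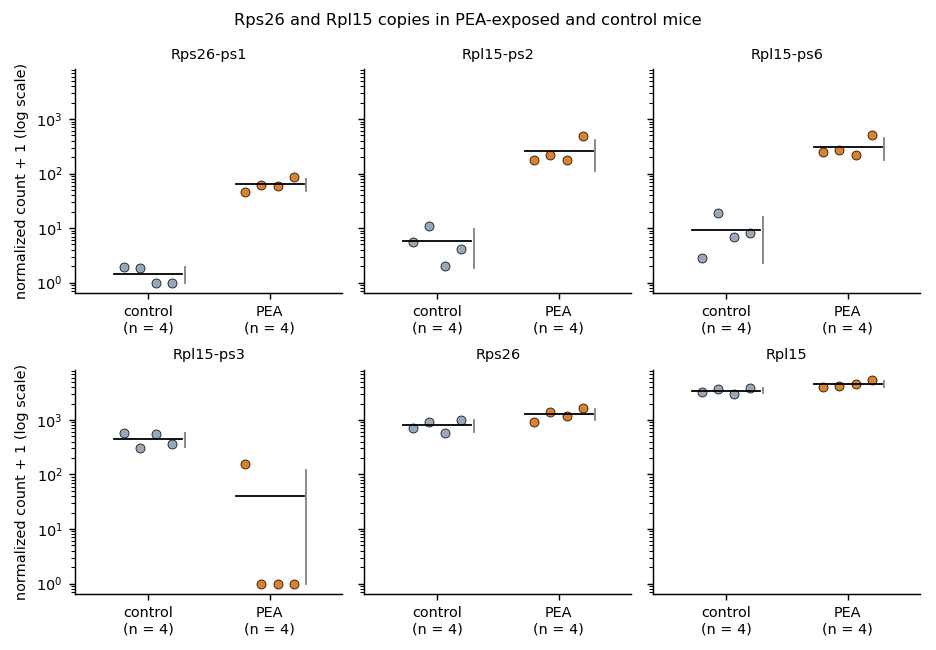
Normalized count plus 1 (log scale) of Rps26-ps1, the Rpl15 copies Rpl15-ps2, Rpl15-ps6 and Rpl15-ps3, and the parents Rps26 and Rpl15 in 4 control and 4 PEA mice. Points are mice, black bars are means and grey bars are ± 1 SD, cut at 0; Rps26-ps1, Rpl15-ps2 and Rpl15-ps6 were higher in every PEA mouse, Rpl15-ps3 lower, and both parents differed far less.

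The other pseudogenes with large or small-p differences in the PEA experiment did not pass the test. Rpl34-ps1 had 1056, 1304, 862 and 1173 normalized counts in the control mice and 1502, 1785, 1621 and 1883 in the PEA mice, without overlap (log2 fold change 0.64, SE 0.14, adjusted p = 0.102). Rpl28-ps1, identical to the large-subunit gene Rpl28, had 423 to 677 in the control mice and 666 to 1079 in the PEA mice (log2 fold change 0.64, SE 0.18, adjusted p = 0.157). Rps24-ps3, a copy of the small-subunit gene Rps24 on chromosome X, had 271, 0, 214 and 0 in the control mice and 486, 560.4, 465 and 142 in the PEA mice (log2 fold change 4.56, SE 1.79, adjusted p = 0.277). Rpsa-ps10, a copy of Rpsa, which encodes a small-subunit protein also known as the laminin receptor, had 2324, 31.9, 34.3 and 1872 in the control mice and 2489, 4954, 3642 and 2539 in the PEA mice (log2 fold change 3.61, SE 1.33, adjusted p = 0.249). In the last 2 copies the control mice fell into a high and a low pair, and these pairs were not the same mice. The parents Rps24 (log2 fold change -0.24, adjusted p = 0.457) and Rpsa (-0.27, adjusted p = 0.450) did not pass the test either. For the Rpsa family as a whole the sum over parent and copies had a coefficient of variation of 13.7% over the 8 mice, against 70.0% for its pseudogenes alone. Rpsa itself ranged from 4350 to 6958 normalized counts over these mice, so part of the low variation of the sum follows from the parent's size.

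Of the 8 copies with the highest means, Rpsa-ps10 and Rpl34-ps1 are given above. Rpl3-ps1, a copy of the large-subunit gene Rpl3, had a log2 fold change of 0.20 (SE 0.13), Rps7-ps3 of 0.09 (SE 0.21), Rps2-ps10 of 0.29 (SE 0.22), Rpl27-ps3 of 0.29 (SE 0.37) and Rpl35a-ps2 of -0.01 (SE 0.31). For Rps18-ps6 it was 0.40 (SE 0.12, adjusted p = 0.173).

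Of the 56 tested pseudogenes, 13 had an unadjusted p under 0.05 (23.2%, 9 higher and 4 lower), against 15.0% of all genes tested. The groups did not overlap for 7 pseudogenes (12.5%, 5 higher and 2 lower in the PEA mice), against 9.32% of all genes. The median log2 fold change of the tested pseudogenes was -0.06, and that of all genes was -0.02. None of the 85 tested ribosomal protein genes passed the limma test, although 25 had an unadjusted p under 0.05, 23 of them higher in the PEA mice, and their median log2 fold change was 0.11.

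Silencing of the sensory neurons gave no called pseudogene. Of the 85 pseudogenes with a mean of at least 10 in the Kir2.1 experiment, limma called 0, against 70 of 19807 genes (0.353%). An unadjusted p under 0.05 was found for 3 of them (3.53%), against 11.1% of all genes, and 8 did not overlap between groups (9.41%), all higher in the Kir2.1 mice, against 16.3% of all genes. The pseudogenes were also noisier, with a median SE of 0.42 against 0.15 for all genes. An absolute log2 fold change over 1 was found for 11.8% of them, against 3.85% of all genes. With 3 against 3 mice, the lower shares therefore do not show that pseudogenes changed less than other genes. No pseudogene was near 0 in one group and expressed in the other, against 10 of 51211 symbols (0.0195%). Rps2-ps8, a copy of Rps2, missed the rule by 1 mouse, since it was listed at 0 in all 3 control mice and had 4.87, 21.9 and 12.03 normalized counts in the Kir2.1 mice.

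All 3 pseudogenes with an unadjusted p under 0.05 were higher in the Kir2.1 mice. Rps15a-ps8, the diverged copy shown above, had 364, 354 and 476 normalized counts in controls and 561, 528 and 481 in Kir2.1 mice, without overlap (log2 fold change 0.40, SE 0.14, limma adjusted p = 0.343). Rpl28-ps3 had 1.98, 15.5 and 5.08 in controls and 16.4, 46.0 and 17.8 in Kir2.1 mice, also without overlap (log2 fold change 1.89, SE 0.72, limma adjusted p = 0.391). Rps16-ps2, identical to the small-subunit gene Rps16, had 1488, 1706 and 2224 against 2026, 2341 and 3079, with overlap (log2 fold change 0.46, SE 0.19, limma adjusted p = 0.441). Next by p came Rps2-ps7 (log2 fold change 0.76), Rpsa-ps12 (0.94) and Rps19-ps3 (0.43), with limma adjusted p between 0.502 and 0.536.

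More of the tested pseudogenes lay above 0 than below, with 60 higher and 25 lower and a median log2 fold change of 0.23, against 0.01 for all genes. The ribosomal protein genes lay the same way, with 87 of 87 above 0 and a median of 0.14. Of all 19807 genes tested, 10148 lay above 0. But limma called 0 of the ribosomal protein genes, and 12 had an unadjusted p under 0.05 (13.8%, against 11.1% of all genes). Of the parents named here, Rpl28 turned below 0 under quantile normalization and median centring and Rps7 under the former. None of the 8 copies with the highest means passed the limma test, and 7 of them lay above 0. Rpl10-ps3 had a log2 fold change of 0.15 (SE 0.08), Rps26-ps1 of 0.15 (SE 0.09), Rpl9-ps6 of 0.28 (SE 0.33), Rps2-ps10 of 0.23 (SE 0.39), Rps23-ps1 of 0.30 (SE 0.17), Rpl28-ps1 of 0.10 (SE 0.12) and Rpl36-ps12 of 0.19 (SE 0.19). Rps18-ps4 lay below 0, at -0.32 (SE 0.30). Without the third control mouse Rpl9-ps6 and Rps2-ps10 also lay below 0, at -0.0984 and -0.249.

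**Figure D4:**
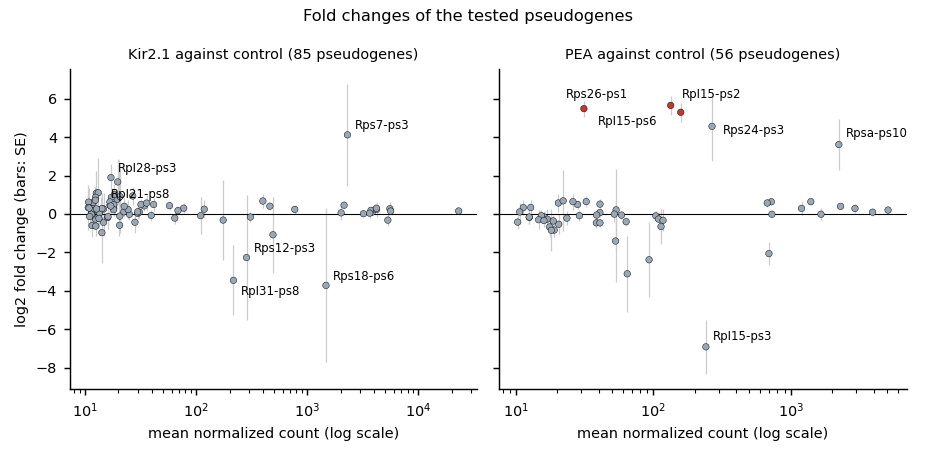
Log2 fold change of each tested pseudogene against its mean normalized count (log scale) in the Kir2.1 experiment (left, 85 pseudogenes, 3 against 3 mice) and the PEA experiment (right, 56, 4 against 4 mice), with bars of ± 1 SE. Red points passed the test: none on the left, and Rps26-ps1, Rpl15-ps2 and Rpl15-ps6 on the right; the largest values on the left have wide bars.

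The largest fold changes in the Kir2.1 experiment belonged to copies that differed widely between mice of the same group. Rps7-ps3 had 3942, 3.76 and 17.7 normalized counts in the control mice and 4568, 77.0 and 5193 in Kir2.1 mice (log2 fold change 4.12, SE 2.65, limma adjusted p = 0.657). Rps18-ps6 had 0, 1276 and 4858 in the control mice and 0, 2706 and 0 in Kir2.1 mice (log2 fold change -3.72, SE 4.01, limma adjusted p = 0.816). Each of the 6 mice thus had at least 1000 normalized counts of 1 of these 2 copies and under 100 of the other, and both kinds of mice were present in both groups. Rps18-ps5 stood at 807, 1110.1 and 953 in the 3 mice in which Rps18-ps6 was high and at 11.1, 31.8 and 35.4 in the other 3 mice. In all 8 mice of the PEA experiment Rps7-ps3, with 2436 to 4739 normalized counts, and Rps18-ps6, with 1828 to 2963, were both high.

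Copies of Rpl31 and Rps12 also had mice at 0 within a group. Rpl31-ps8, identical to the large-subunit gene Rpl31, had 147, 306 and 562 normalized counts in the control mice and 107, 177 and 0 in Kir2.1 mice (log2 fold change -3.46, SE 1.83, limma adjusted p = 0.562). Rps12-ps3, identical to the small-subunit gene Rps12 and annotated as protein coding, had 456, 0 and 246 in the control mice and 0, 0 and 1002 in Kir2.1 mice (log2 fold change -2.27, SE 3.25, limma adjusted p = 0.870). Rpl21-ps8, a copy of the large-subunit gene Rpl21, had 19.4, 0 and 22.5 against 25.5, 35.8 and 14.8 (log2 fold change 1.67, SE 1.18). These values depended on single mice. With 1 mouse left out, the log2 fold change of Rps7-ps3 lay between 2.18 (without the second control mouse) and 7.02 (without the first control mouse). That of Rps18-ps6 lay between -7.52 (without the second Kir2.1 mouse) and -1.36 (without the third control mouse). For Rpl31-ps8 the range was -4.82 (without the second Kir2.1 mouse) to -1.08 (without the third Kir2.1 mouse). For Rps12-ps3 it was -5.59 (without the third Kir2.1 mouse) to -0.61 (without the first or the second Kir2.1 mouse). For Rpl21-ps8 it was 0.18 (without the second control mouse) to 2.46 (without the third control mouse). None of the parents Rps7, Rps18, Rpl31, Rps12, Rpl28 and Rpl21 passed the test, and their log2 fold changes lay between 0.01 and 0.31.

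**Figure D5:**
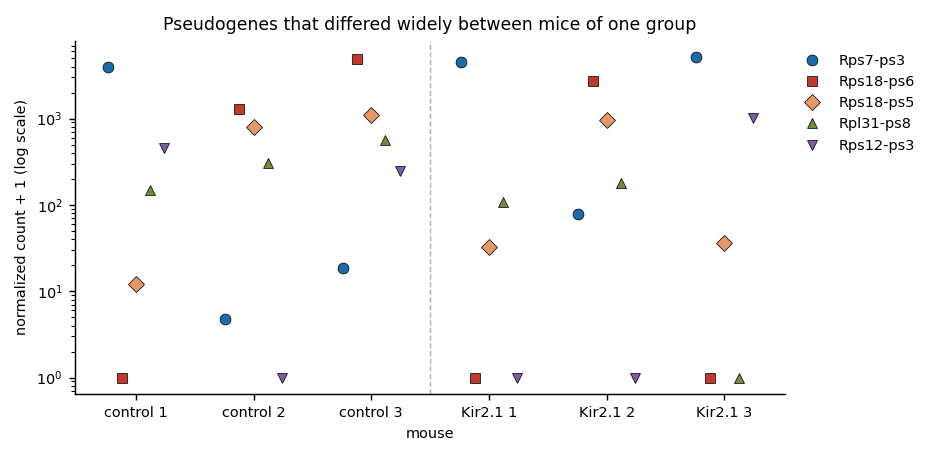
Normalized count plus 1 (log scale) of Rps7-ps3, Rps18-ps6, Rps18-ps5, Rpl31-ps8 and Rps12-ps3 in each mouse of the Kir2.1 experiment, with 3 control mice to the left of the dashed line and 3 Kir2.1 mice to the right. Rps7-ps3 and the 2 Rps18 copies are high in different mice, and both kinds of mice occur in both groups.

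Sums over a family varied less than its copies. The Rps18 pseudogenes summed to a level with a coefficient of variation of 46.9% over the 6 mice, while the sum of Rps18 and all its near-identical copies varied by 4.68%. For Rps7 the values were 109% for the pseudogenes and 10.1% for the family. Rps7 itself had 20060 to 28667 normalized counts over the 6 mice, well above Rps7-ps3 in every mouse. The low value of the Rps7 family thus largely follows from the parent's size and says little about its copies. Rps18 itself was 21108, 25171 and 24059 in the mice in which Rps18-ps6 was listed at 0, and 15760.3, 16794 and 17558 in the others.

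A swing from at most 3 to at least 100 normalized counts between mice of 1 group, a rule set after these values were seen, was met in the Kir2.1 experiment by 3 of the 25 pseudogenes that reached 100 in any mouse (12%), against 0.616% of the 14927 genes that did. They were Rps18-ps6, Rpl31-ps8 and Rps12-ps3. The PEA experiment had 6 of 24 (25%), against 0.613% of 12389 genes. Beside Rpl15-ps3 and Rps24-ps3, they were Rpl10a-ps1, with 745 normalized counts in the fourth control mouse and 0 in the other 7 mice, Rpl36a-ps2, Rpl36a-ps3 and Rps13-ps2, which had 153 in the second control mouse, 276 in the first PEA mouse and 0 in the other 6. Rpl10a-ps1 was identical to the large-subunit gene Rpl10a over the aligned bases.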

How the data were processed

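The data were bulk RNA-seq of olfactory epithelia from 6 mice of the Kir2.1 experiment and 8 of the PEA experiment. The deposited values are normalized counts, a depth-scaled signal per gene that the authors made by estimating transcript levels with Salmon 1.3.0 on GRCm38 (Ensembl annotation), summing them per gene with tximport and dividing by DESeq2 1.30.0 size factors within each experiment. Kir2.1 libraries came from poly-A RNA, read as 40-base unstranded single ends, and PEA libraries were depleted of ribosomal RNA and read as 150-base stranded single ends. Reads that match several copies are divided by Salmon's model, so values of near-identical copies are estimates that can shift between them. Whole reads could not be recovered: 25.5 to 32.8% of the values above 0 and below 100 in the Kir2.1 table and 8.28 to 12.1% in the PEA table were within 0.02 of a multiple of the most frequent low value, so no count test was run and library depth is unknown.

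The experiments were fitted separately in limma 3.58.1 (R 4.3.3) on log2(normalized count + 1), with a mean of at least 10, an empirical Bayes mean-variance trend, and two-sided Benjamini-Hochberg adjustment over all genes tested. The fit was tested on simulated tables with known changes, drawn with normal noise and with variances shuffled between genes. The shuffling broke the link between a gene's level and its variance, so that test does not bear on the calls for these pseudogenes. Replicates are single mice, and p-values measure the spread between them. The study placed the odor vial in the home cage with mother and pups, so exposure was given by cage. The litter and cage of each mouse are not known here. They could not be accounted for or told apart from exposure, and pups of the same cage would not be independent replicates of it. Positions and sequences came from GENCODE for GRCm38, which is older than the authors' annotation, and alignments used BLAST 2.17.0. Named pseudogenes were those near 0 in one group and expressed in the other, those called, the 6 largest fold changes per experiment, the parents of these 3 kinds, the 8 highest means, the 6 lowest p where fewer than 6 were called, and the 4 with the largest change of rank between tables in each direction. Other names were added after their values were seen. The members, gene lists and rules were chosen with earlier results of these data known. The alternatives were other pseudocounts, filters, variance models, scalings, a replicate block and leaving out each mouse.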

Additional observations from a re-analysis of the deposited data

Results flagged for a closer look

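The 23 named genes of the PEA experiment gave 38 groups of 4 mice to test, since groups listed at 0 throughout were left out. In these, 4 single mice stood apart by Dixon's criterion, which chance meets in about 1 of 20 groups of normally distributed values. Some genes were named for extreme values, so this rate is only a rough guide. Rpl15-ps2 had 487 normalized counts in the fourth PEA mouse against 173 to 213 in the other 3, and Rpl15-ps6 had 508 in the same mouse against 217 to 266. Rpl15-ps3 had 158 in the first PEA mouse against 0 in the other 3, a pattern that meets the criterion by construction. Rps18-ps6 had 2370.1 in the first control mouse against 1828 to 1880.2 in the other 3.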

How the results depend on the processing

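In the PEA experiment Rps26-ps1, Rpl15-ps2 and Rpl15-ps6 remained the 3 called pseudogenes under both other pseudocounts, without the trend, with the robust variance model, under both other scalings and with the replicate block. Without a filter on low values 1 pseudogene was called, Rps26-ps1, with adjusted p of 0.0695 for Rpl15-ps2 and 0.0900 for Rpl15-ps6, and with a mean of at least 50 the calls were Rpl15-ps2 and Rpl15-ps6, since Rps26-ps1 fell below that mean. Leaving out each mouse gave 3 to 4 calls, the added one being Rpl15-ps3 without the first PEA mouse, the only PEA mouse in which it was above 0. In the Kir2.1 experiment 0 pseudogenes were called under these settings, except 1 without a filter on low values, Rpl23a-ps2, which was listed at 0 in the 3 control mice and had 3.31 to 3.99 in the Kir2.1 mice. The count of called ribosomal protein genes in the PEA experiment was 1 under quantile normalization (Rpl37a) and 0 to 1 with a mouse left out. Pseudogenes near 0 in one group and expressed in the other numbered 1 to 2 in the PEA experiment with a mouse left out and 2 with expressed set at 5, where Rpl31-ps21 was added, and 0 to 1 in the Kir2.1 experiment, where Rps2-ps8 was added without the first Kir2.1 mouse. The median log2 fold change of the pseudogenes was 0.11 to 0.30 in the Kir2.1 experiment and -0.20 to 0.09 in the PEA experiment with a mouse left out, and the latter was above 0 without the first control or the first PEA mouse. Of the 43 single fold changes recomputed under the alternatives, 8 changed direction, and none of the 8 passed the test in any setting. With a mouse left out, the log2 fold changes in the Kir2.1 experiment were -0.0384 to 0.0429 for Rpl28, -0.0775 to 0.180 for Rps7, -0.0984 to 0.506 for Rpl9-ps6, -0.249 to 0.483 for Rps2-ps10 and -0.0192 to 0.324 for Rpl36-ps12, and in the PEA experiment -0.0805 to 0.565 for Rpl27-ps3, -0.215 to 0.216 for Rpl35a-ps2 and -0.113 to 0.238 for Rps7-ps3. Quantile normalization gave -0.0258 for Rpl28, -0.0142 for Rps7 and 0.0570 for Rpl35a-ps2, and median centring gave -0.0298 for Rpl28. The replicate numbers were not taken as pairs in the main fit. Same-numbered mice had correlations of deviations between -0.06 and 0.16 in the Kir2.1 experiment and between -0.05 and 0.13 in the PEA experiment. In these experiments 2 of 6 and 4 of 8 mice were closest to their own number. This check cannot exclude pairing, and the study describes the Kir2.1 controls as littermates. Called genes of any kind numbered 23 to 44 in the Kir2.1 experiment and 19 to 43 in the PEA experiment with a mouse left out. With the replicate block 9 genes in all were called in the Kir2.1 experiment, 0 of them pseudogenes, and 23 in the PEA experiment. The causes of these changes were not tested beyond the construction of each setting.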
